A study of Homo sapiens with 6 samples.

Results

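The genes described here are 9 heat shock protein genes of the HSP70, HSP90 and HSP60 systems, chosen by name out of the 14574 genes of one deposited table. All 9 had a row in the table, and all 9 passed the filter on low values. They were HSPA8, HSPA1A, HSPA1B, HSPA4 and HSPA9 of the HSP70 group, HSP90AB1 and HSP90AA1 of the HSP90 group, and HSPD1 with HSPE1, which encode HSP60 and its lid. The samples came from HCT116, an established human colorectal carcinoma line. Cells with a LARP1 knockout (LARP1 KO, RNA-seq, n = 2 libraries) were set against parental cells (RNA-seq, n = 2), and a further 2 libraries were made from the parental RNA to read transcription start sites (TSS). The protocols speak of KO pools and do not describe the knocked-out allele. All cells of all groups had been treated with TAK228, an mTOR inhibitor, at 250 nM for 48 h, so none of the comparisons includes untreated cells. The RNA came from the non-polysomal part of a sucrose gradient.

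HSP70 proteins bind unfolded stretches of other proteins and release them in a cycle driven by ATP, with J-domain proteins starting the cycle and exchange factors ending it. HSP90 acts later, on nearly folded clients such as kinases and steroid receptors, and HSP60 with its lid HSP10 forms a closed folding chamber inside mitochondria. LARP1 is an RNA-binding protein that, when mTOR is inhibited, holds capped mRNAs by their TOP motif (terminal oligopyrimidine), a C followed by pyrimidines at the very 5′ end of many mRNAs for the translation machinery. Several chaperone genes have a constitutive and a stress-inducible copy, and the inducible ones are activated by HSF1, a transcription factor that binds heat shock elements, inverted repeats of the unit GAA.

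The start of the mRNA is shown because the TOP motif lies there. RefSeq (GRCh38.p14) gave 13 start windows for the 9 genes, and the lines below hold 10 bases before and 20 bases from the annotated start, 5′ to 3′, for 6 of them. Capitals mark the unbroken run of C and T from the start base where that base is C.
HSPA8 (chr11:123062117-123062146, minus strand): ggaaaccggtCTCattgaactcgcctgcag
HSPD1, second start (chr2:197499821-197499850, minus strand): tgcactctgtCCCTCactcgccgccgacga
HSPA4 (chr5:133052003-133052032, plus strand): gagatctttcgagatcttctccgcccccgc
HSPE1 (chr2:197500369-197500398, plus strand): gggccggactgcgagtctctttgcggcgct
HSPA9 (chr5:138575382-138575411, minus strand): ggaggtttccagaagcgctgccgccaccgc
HSP90AA1, second start (chr14:102087025-102087054, minus strand): gtggcgcgtcagttgcttcagcgtcccggt
The annotated starts of HSPA8 and HSPD1 shown here opened with C and a pyrimidine run of 3 and 5 bases, in that order. The first annotated start of HSPD1, not printed, opened with G, so for this gene the run depends on which start is used. All windows of HSPA4, HSPE1, HSPA9, HSP90AA1, HSPA1A and HSPA1B opened with A or G. Of the 10 windows of the 8 genes other than HSP90AB1, 2 opened with C and a run of at least 3 bases, against 7.99% of the 14601 windows of genes tested, and 1 with a run of at least 5 bases, against 5.14%. These are annotated starts, and the table used here gives a total per gene and no start position, so which start each library read was not tested.

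The stretches upstream that hold the heat shock element are shown because HSF1 binds that element and activates the stress-inducible chaperone genes. The motif searched was an inverted pair of units, GAANNTTC or TTCNNGAA, on both strands of the window of 250 bases before and 50 bases after each start, and 3 such units in a row, which contains the pair. Capitals mark the units in the lines below (RefSeq, GRCh38.p14, 5′ to 3′ on the strand of the gene).
HSPA8 (chr11:123062175-123062195, minus strand): ccccTTCtgGAAggTTCtaag
HSPD1 (chr2:197500064-197500089, minus strand): cattTTCtgGAAagTTCtgGAAccga
HSP90AB1 (chr6:44247827-44247847, plus strand): attgTTCtgGAAgcTTCtgga
HSP90AA1 (chr14:102087116-102087136, minus strand): gttcTTCcgGAAggTTCggga
At least 3 units in a row were present in a window of these 4 of the 9 genes, against 0.510% of the genes tested. The pair was present in 7 of the 9 genes, against 13.5% of the genes tested, and HSPA4 and HSPE1 held none in their own windows. The HSPD1 stretch lies 294 bases from the start of HSPE1, its divergent neighbour, and so outside the HSPE1 window. Of the 4 genes with 3 units, HSPA8, HSPD1 and HSP90AB1 fell in the LARP1 KO fraction, as described next, and HSP90AA1 was not called with the deposited scaling. A match is a description of letters, and binding was not measured.

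The table holds normalised read counts, which are reads divided by 1 size factor per library. Reads summed to 22039174 and 21388111 in the LARP1 KO libraries, 19038642 and 25323973 in parental RNA-seq libraries, and 26955481 and 24446561 for TSS, of which 6267820 to 9063478 lay outside the mitochondrial genes. LARP1 itself had 356 and 284 normalised read counts in the LARP1 KO libraries, against 633 and 770.3 in the parental RNA-seq libraries (log2 difference -1.13, limma adjusted p = 2.86e-09). Of 6 epithelial markers 5 were listed, and their levels did not move together. KRT8 averaged 3556 ± 417 in LARP1 KO and 3264 ± 78.1 in parental libraries, KRT18 4792 ± 366 in LARP1 KO and 5155 ± 133 in parental, KRT19 2381 ± 257 in LARP1 KO and 4287 ± 286 in parental, EPCAM 299.7 ± 85.0 in LARP1 KO and 559.9 ± 23.0 in parental, and CDH1 58.8 ± 8.74 in LARP1 KO and 111 ± 35.6 in parental (SD, n = 2 each). Of 9 markers of blood, endothelium, fibroblast and liver, only COL1A1 was listed, at up to 38.2 in LARP1 KO libraries and up to 21.5 in parental RNA-seq libraries. Over 14561 genes tested, 25.1% were called lower in LARP1 KO and 3.77% higher (limma on log2(value + 1), adjusted p under 0.05), and the median log2 difference was -0.29. With each library centred on its own median, 16.2% were called lower and 14.6% higher, the lower share of calls was 52.7% against 86.9% with the deposited scaling, and the median of all genes shifted by 0.31 to 0.02. The difference of each of the 9 chaperone genes is therefore given below with both scalings. For other genes a centred value is given only where stated.

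The comparison asks which chaperone mRNAs differed in level between the non-polysomal fractions of LARP1 KO and parental cells under mTOR inhibition. HSPA8, HSPD1, HSP90AB1 and HSPA4 fell, and HSPA1A, HSPA1B, HSPA9, HSPE1 and HSP90AA1 were not called. The count was thus 4 of 9 lower and 0 of 9 higher, beside the 25.1% and 3.77% of all genes tested, and the median log2 difference of the 9 genes was -0.31, beside -0.29 for all genes. None of the 9 was higher at limma's unadjusted p under 0.05 either. At an adjusted p under 0.05, edgeR called 0 higher with the deposited factors and 2 with TMM factors. DESeq2, with its own size factors, also called 2. Of the 14561 genes tested, these settings called 511, 2130 and 983 higher, in that order. After centring, 4 of 9 were lower and 2 of 9 were higher, beside 16.2% and 14.6% of all genes. Both LARP1 KO libraries lay below both parental RNA-seq libraries for 5 of the 9 genes, and above them for 1, beside 50.4% and 12.4% of all genes tested. A level in this fraction depends on how much of an mRNA the cells held and on how much of it lay outside polysomes, and these cannot be told apart here. The labels give 1 mg of lysate and 1 µg of RNA for every group, and the values are scaled by library. They therefore measure neither the number of cells nor the RNA per cell. Any factor common to all mRNAs of a library drops out of the ratios between chaperone genes given below.

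**Figure D1:**
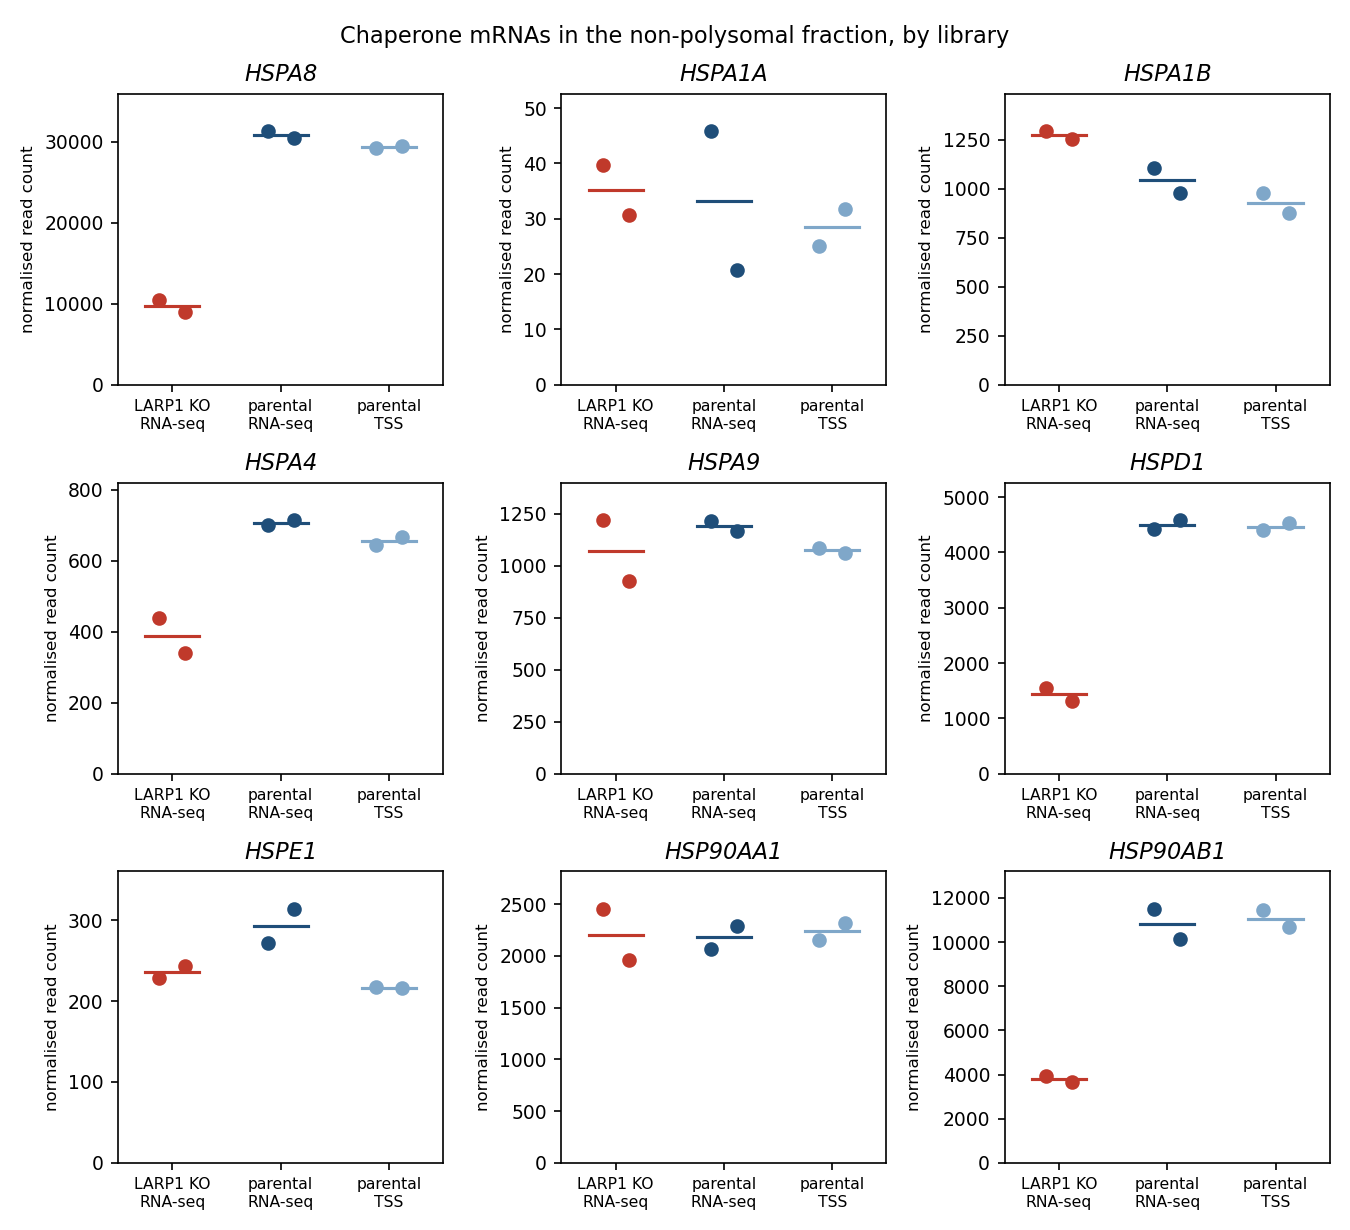
Normalised read count (y axis, linear, from 0) of each of the 9 chaperone genes in every library, with LARP1 KO RNA-seq, parental RNA-seq and parental TSS libraries along the x axis. Points are libraries and lines are means of n = 2. HSPA8, HSPD1, HSP90AB1 and HSPA4 have both LARP1 KO points below all 4 parental points, and HSPA1A, HSPA9 and HSP90AA1 overlap.

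HSPA8 encodes the constitutive cytosolic HSP70 (HSC70), which folds new proteins and strips clathrin from vesicles. It lies on chromosome 11 at 123057489 to 123063230, minus strand (GRCh38), with 9 exons in its representative transcript. HSPA8 had 10428 and 8945 normalised read counts in the LARP1 KO libraries, against 31252 and 30491 in parental RNA-seq libraries and 29275 and 29487 in TSS libraries. Both LARP1 KO libraries were far below all 4 parental libraries, and the groups did not overlap. The means were 9686 ± 1049 in LARP1 KO and 30871 ± 538 in parental cells (SD, n = 2 each), 3.20-fold lower in LARP1 KO on the log2(value + 1) scale, with a log2 difference of -1.68 (SE 0.15, 95% interval -1.96 to -1.39, limma adjusted p = 7.07e-29). Centred, the difference was -1.37 (limma adjusted p = 1.22e-09). Only 6.13% of the genes tested had a lower log2 difference than HSPA8. As a share of the reads outside mitochondrial genes, HSPA8 took 0.212% ± 0.00387 in LARP1 KO and 0.335% ± 0.0107 in parental libraries (SD, n = 2 each), 1.58-fold lower in LARP1 KO. A share depends on every other mRNA in the library, so its fold need not equal that of the scaled value.

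HSP90AB1 encodes the constitutive cytosolic HSP90 beta. It lies on chromosome 6 at 44246166 to 44253888, plus strand, with 12 exons. HSP90AB1 had 3921 and 3663 normalised read counts in the LARP1 KO libraries, against 11478 and 10144 in parental RNA-seq libraries and 11437 and 10662 in TSS libraries. Again both LARP1 KO libraries were the lowest of the 6, with no overlap. HSP90AB1 averaged 3792 ± 183 in LARP1 KO and 10811 ± 944 in parental cells (SD, n = 2 each), 2.85-fold lower in LARP1 KO, with a log2 difference of -1.51 (SE 0.14, limma adjusted p = 4.54e-24). The centred difference of HSP90AB1 was -1.20 (limma adjusted p = 1.22e-08).

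HSP90AA1, on chromosome 14 at 102080738 to 102139699, minus strand, encodes HSP90 alpha, the copy that heat shock induces further. Its counts were 2450 and 1964 in the LARP1 KO libraries, against 2070 and 2294 in parental RNA-seq libraries and 2159 and 2319 in TSS libraries. Both parental RNA-seq libraries lay between the LARP1 KO libraries, so the groups overlapped. HSP90AA1 averaged 2207 ± 344 in LARP1 KO and 2182 ± 158 in parental cells (SD, n = 2 each), a log2 difference of 0.01 (SE 0.15, 95% interval -0.28 to 0.30, limma adjusted p = 0.971). Centring turned this into a call: the difference was then 0.32, 1.25-fold higher in LARP1 KO (limma adjusted p = 0.00591). The direction of HSP90AA1 thus rests on the scaling, and with the deposited scaling its sign changed without LARP1 KO replicate 1 (-0.15) and without parental replicate 1 (-0.06).

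The ratio of HSP90AB1 to HSP90AA1 within a library is free of the size factor. It is not corrected for length and is used only to compare libraries. The ratio was 1.60 and 1.87 in the LARP1 KO libraries, against 5.54 and 4.42 in parental RNA-seq libraries and 5.30 and 4.60 in TSS libraries. Both LARP1 KO ratios lay below all 4 parental ratios, with means of 1.73 ± 0.187 in LARP1 KO and 4.98 ± 0.793 in parental RNA-seq libraries (SD, n = 2 each). An exact permutation test gave p = 0.333, two-sided, which is the smallest that 2 against 2 libraries allow.

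HSPD1 encodes HSP60, the barrel of the mitochondrial folding chamber, and lies on chromosome 2 at 197486581 to 197516737, minus strand, with 12 exons. HSPD1 had 1558 and 1316 normalised read counts in the LARP1 KO libraries, against 4426 and 4577 in parental RNA-seq libraries and 4404 and 4525 in TSS libraries. The LARP1 KO values were the 2 lowest, without overlap. HSPD1 averaged 1437 ± 172 in LARP1 KO and 4501 ± 106 in parental cells (SD, n = 2 each), 3.14-fold lower in LARP1 KO, with a log2 difference of -1.65 (SE 0.15, limma adjusted p = 4.66e-27) and a centred difference of -1.34 (limma adjusted p = 1.19e-10).

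HSPE1 encodes HSP10, the lid of that chamber. It lies head to head with HSPD1 on chromosome 2 at 197499994 to 197503457, plus strand. Its annotated RefSeq start lies 539 bases from the second start of HSPD1. The first start of HSPD1, at 197500274, lies nearer to that of HSPE1, at 197500379. HSPE1 had 228 and 244 normalised read counts in the LARP1 KO libraries, against 272 and 313 in parental RNA-seq libraries and 217 and 216 in TSS libraries. The LARP1 KO libraries lay below the parental RNA-seq libraries and above the TSS libraries. HSPE1 averaged 236 ± 10.9 in LARP1 KO and 293 ± 29.2 in parental RNA-seq libraries (SD, n = 2 each), with a log2 difference of -0.31 (SE 0.20, 95% interval -0.69 to 0.08, limma adjusted p = 0.246) and a centred difference of 0.01 (limma adjusted p = 0.981). The representative transcripts of the pair overlap by 54 bases at their 5′ ends, and use of strand in the counting is not given in the sources used here, so reads in that overlap cannot be told apart. A read-through gene, HSPE1-MOB4, shares 5.49% of the windows of 150 bases in HSPE1 and was listed at 4.78 to 17.6 in LARP1 KO and 3.66 to 6.73 in parental RNA-seq libraries.

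The chamber genes were also set against each other within each library. The ratio of HSPD1 to HSPE1 was 6.82 and 5.40 in the LARP1 KO libraries, against 16.3 and 14.6 in parental RNA-seq libraries and 20.3 and 20.9 in TSS libraries. Both LARP1 KO ratios were below all parental ones, and the log2 difference of the ratio was -1.35 (exact permutation p = 0.333, the smallest possible here).

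HSPA4 belongs to the HSP110 branch of the HSP70 family and acts as a nucleotide exchange factor for other HSP70 proteins. It lies on chromosome 5 at 133051962 to 133106449, plus strand, with 19 exons. HSPA4 had 438 and 339 normalised read counts in the LARP1 KO libraries, against 700.0 and 713 in parental RNA-seq libraries and 644 and 666 in TSS libraries. The groups did not overlap, and LARP1 KO was the lower. The means were 389 ± 70.1 in LARP1 KO and 706 ± 9.20 in parental cells (SD, n = 2 each), 1.83-fold lower in LARP1 KO, with a log2 difference of -0.87 (SE 0.17, limma adjusted p = 6.52e-06) and a centred one of -0.56 (limma adjusted p = 2.82e-04). The call on HSPA4 ended when limma was run without its intensity trend (adjusted p = 0.0544). As a share of reads outside mitochondrial genes the direction turned, with 0.00847% ± 0.000770 in LARP1 KO and 0.00767% ± 0.0000108 in parental libraries (SD, n = 2 each). The 5 genes that were not called also took a larger share of these reads in either LARP1 KO library than in any parental RNA-seq library. Their shares were 2.46-fold higher in LARP1 KO for HSPA1B, 2.12-fold for HSPA1A, 2.03-fold for HSP90AA1, 1.80-fold for HSPA9 and 1.64-fold for HSPE1. The overlap of HSPA1A, HSPA9 and HSP90AA1 thus holds for the scaled counts and not for the shares. A share depends on every other mRNA in the library. How many of all genes tested took a larger share in LARP1 KO was not counted. The larger shares of HSPA4 and of these 5 genes are therefore not read as particular to them.

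HSPA9 encodes mortalin, the HSP70 of the mitochondrial matrix, and lies on chromosome 5 at 138553756 to 138575724, minus strand. Its counts were 1218 and 929 in the LARP1 KO libraries, against 1217 and 1169 in parental RNA-seq libraries and 1087 and 1063 in TSS libraries. One LARP1 KO library was the highest of the 6 and the other the lowest, so the groups overlapped. HSPA9 averaged 1074 ± 204 in LARP1 KO and 1193 ± 34.0 in parental cells (SD, n = 2 each), with a log2 difference of -0.16 (SE 0.16, 95% interval -0.47 to 0.15, limma adjusted p = 0.467) and a centred one of 0.15 (limma adjusted p = 0.258). The interval of HSPA9 leaves out differences of the size seen for HSPA8 and HSPD1.

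Set against HSPA9 within each library, both HSPA8 and HSPD1 were lower in LARP1 KO. The ratio of HSPA8 to HSPA9 was 8.56 and 9.63 in the LARP1 KO libraries, against 25.7 and 26.1 in parental RNA-seq libraries and 26.9 and 27.7 in TSS libraries. The ratio of HSPD1 to HSPA9, whose proteins work in the same compartment, was 1.28 and 1.42 in the LARP1 KO libraries, against 3.64 and 3.92 in parental RNA-seq libraries and 4.05 and 4.26 in TSS libraries. In neither ratio did the groups overlap (exact permutation p = 0.333 for each, the smallest possible with n = 2 each). These are 2 of 6 ratios computed, of which 5 had both LARP1 KO values below all parental ones. Each of these 5 set a gene called lower over a gene not called. They draw on the same values as the calls, so they are a description and not separate support.

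**Figure D2:**
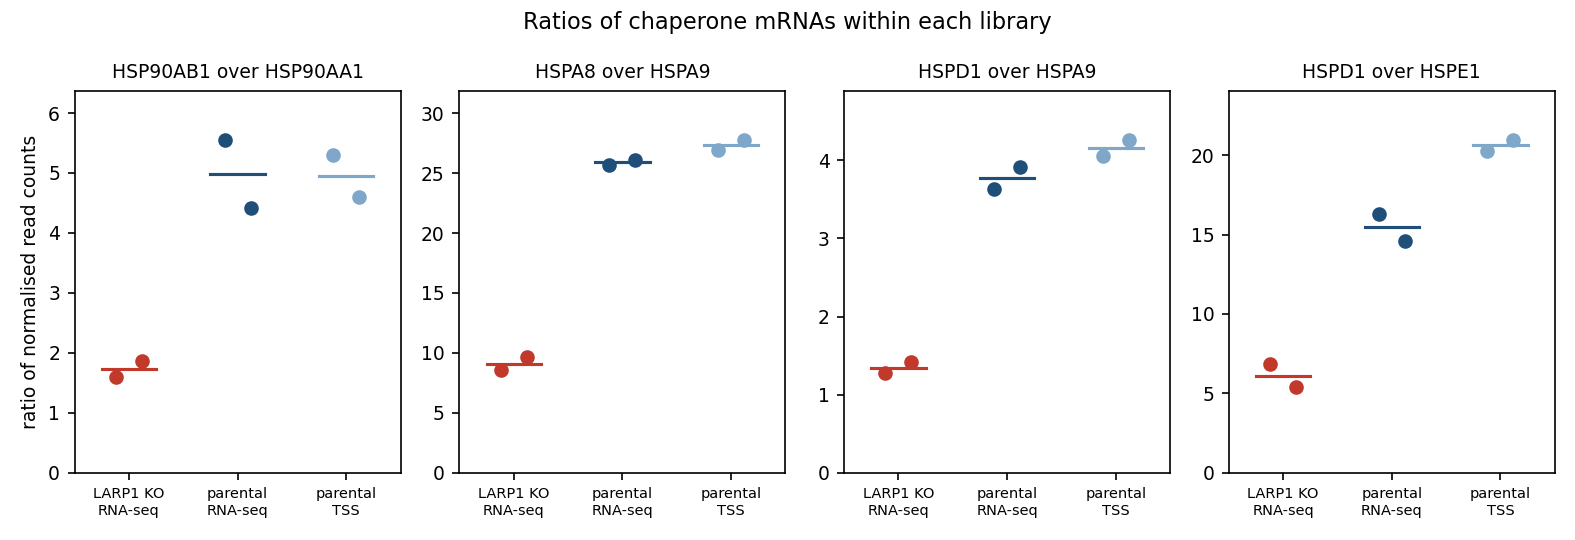
Ratio of normalised read counts of 2 chaperone genes within each library (y axes, linear, from 0), for LARP1 KO RNA-seq, parental RNA-seq and parental TSS libraries along the x axis. Points are libraries and lines are means of n = 2. In all 4 panels both LARP1 KO points lie below the parental points, for example 1.60 and 1.87 against 5.54 and 4.42 for HSP90AB1 over HSP90AA1.

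HSPA1A and HSPA1B encode the stress-inducible cytosolic HSP70. They are single-exon genes on chromosome 6, plus strand, at 31815464 to 31817946 and 31827735 to 31830255, with 9789 bases between them. Their transcripts are near copies: 67.1% of the windows of 150 bases in HSPA1A occur unchanged in HSPA1B, so how reads were split between them is uncertain. HSPA1B had 1293 and 1253 normalised read counts in the LARP1 KO libraries, against 1105 and 981 in parental RNA-seq libraries and 979 and 875 in TSS libraries. Both LARP1 KO libraries were above all 4 parental libraries. HSPA1B averaged 1273 ± 28.5 in LARP1 KO and 1043 ± 87.7 in parental cells (SD, n = 2 each), with a log2 difference of 0.29 (SE 0.16, 95% interval -0.02 to 0.60) that was not called with the deposited scaling (limma adjusted p = 0.161). After centring it was 0.60, 1.52-fold higher in LARP1 KO (limma adjusted p = 1.64e-04).

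HSPA1A was listed at 39.7 and 30.7 in the LARP1 KO libraries, against 45.8 and 20.7 in parental RNA-seq libraries and 25.1 and 31.8 in TSS libraries, from 17 to 52 reads a library. The groups overlapped. HSPA1A averaged 35.2 ± 6.36 in LARP1 KO and 33.2 ± 17.7 in parental cells (SD, n = 2 each), with a log2 difference of 0.17 (SE 0.34, 95% interval -0.50 to 0.84, limma adjusted p = 0.749). The centred difference of HSPA1A was 0.48 (limma adjusted p = 0.320). With the deposited scaling its sign changed when LARP1 KO replicate 1 or parental replicate 2 was left out (-0.0066 and -0.38, in that order). With the reads of both genes summed, a step chosen after the data were seen, the log2 difference was 0.28 with the deposited scaling (limma adjusted p = 0.168) and 0.60 after centring (limma adjusted p = 2.10e-04). The constitutive and inducible HSP70 of the cytosol were also compared within libraries. The ratio of HSPA8 to HSPA1B was 8.06 and 7.14 in the LARP1 KO libraries, against 28.3 and 31.1 in parental RNA-seq libraries and 29.9 and 33.7 in TSS libraries, again without overlap (exact permutation p = 0.333, the smallest possible here).

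**Figure D3:**
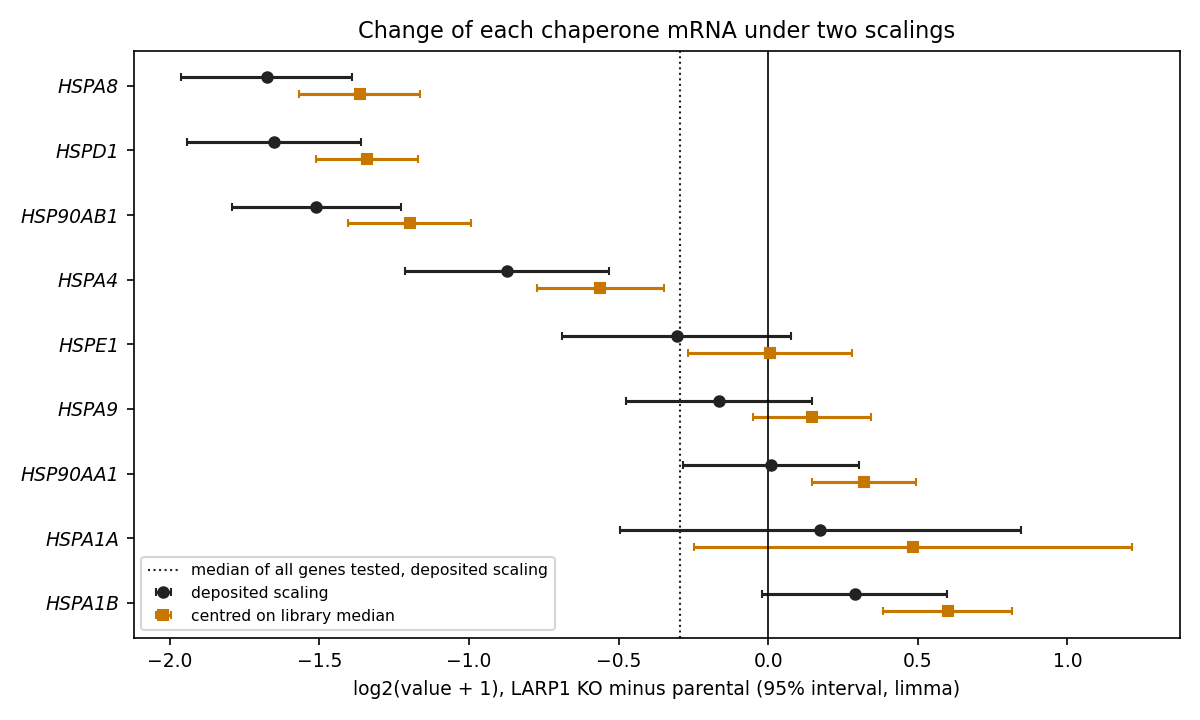
Difference in log2(value + 1), LARP1 KO minus parental RNA-seq libraries (x axis), for each of the 9 chaperone genes (y axis), with the deposited scaling (circles) and centred on the library median (squares). Bars are 95% intervals from limma, n = 2 libraries each, and the dotted line is the median of all genes tested at -0.29 with the deposited scaling. HSPA8, HSPD1, HSP90AB1 and HSPA4 lie below 0 with both scalings, and HSPA1B and HSP90AA1 lie wholly above 0 only after centring.

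Together the 9 genes took 0.444% and 0.437% of non-mitochondrial reads in the LARP1 KO libraries, against 0.577% and 0.545% in parental RNA-seq libraries and 0.618% and 0.561% in TSS libraries. Both LARP1 KO libraries were below all 4 parental libraries. Only HSPA8, HSPD1 and HSP90AB1 took a smaller share in both LARP1 KO libraries than in the parental RNA-seq libraries, and each other member took a larger one. Within the chaperone reads the make-up differed too. HSPA8 supplied 48.3% and 47.9% of the chaperone reads in the LARP1 KO libraries, against 59.5% and 60.1% in parental RNA-seq libraries and 58.3% and 59.2% in TSS libraries.

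Levels of different genes were compared per kb of the representative transcript. HSPA8 was the highest with 3933 ± 426 normalised read counts per kb in LARP1 KO and 12534 ± 219 in parental cells (SD, n = 2 each). HSP90AB1 came next with 1469 ± 70.8 per kb in LARP1 KO and 4187 ± 365 in parental cells. The third place differed by genotype. In LARP1 KO libraries HSP90AA1 (653 ± 102 per kb) and HSPD1 (585 ± 69.9 per kb) did not differ beyond their spread, whereas in parental libraries HSPD1 (1834 ± 43.3 per kb) stood above HSP90AA1 (646 ± 46.8 per kb). HSPA1B was at 505.0 ± 11.3 per kb in LARP1 KO and 414 ± 34.8 in parental cells, and HSPA9 was at 380.1 ± 72.4 in LARP1 KO and 422 ± 12.03 in parental cells. The parental levels of HSPA1B and HSPA9 did not differ beyond their spread. Below them came HSPE1 with 249 ± 11.4 per kb in LARP1 KO and 308 ± 30.7 in parental cells, HSPA4 with 80.6 ± 14.5 in LARP1 KO and 146 ± 1.91 in parental cells, and HSPA1A with 14.2 ± 2.56 in LARP1 KO and 13.4 ± 7.13 in parental cells. The choice of transcript sets part of this order and of the levels. With the length of all exons joined, HSPA8 was at 1998 per kb in LARP1 KO and 6367 in parental cells. HSPA9 then moved to the seventh place in parental cells. In LARP1 KO the third place then went to HSPA1B (505.0 per kb), ahead of HSP90AA1 (421 per kb) and HSPD1 (339 per kb).

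The TSS libraries start from decapped parental RNA and give a second reading of the same material. The ratio of the TSS mean to the RNA-seq mean lay between 0.741 for HSPE1 and 1.03 for HSP90AA1, and it was 0.952 for HSPA8, 0.992 for HSPD1 and 1.02 for HSP90AB1. For HSPA8, HSPD1, HSP90AB1 and HSPA4 the LARP1 KO values were below the parental values of either kind of library. The authors' deposited table compares parental over LARP1 KO, the opposite direction, and its folds followed the mean of all 4 parental libraries. In the authors' deposited table HSPA8 had a log2 fold of 1.64 and HSP90AB1 of 1.53, positive because the parental level is on top. The authors' deposited table gave HSPA1B a log2 fold of -0.37 with an adjusted p of 0.00719. For HSPA1B the present fit with RNA-seq and TSS values averaged as the parental level gave 0.37, LARP1 KO minus parental (limma adjusted p = 0.0354).

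HSPA8 had both the highest mean and the largest log2 difference of the 9 genes, and other genes were ranked by how closely their pattern over the 6 libraries followed it. Among 1353 genes with a mean of at least 500, the closest were NONO, a nuclear RNA-binding protein, at a distance of 0.0755, SNX3, a sorting nexin of endosomes, at 0.0870, and LIF, a cytokine, at 0.0926. The distance is Euclidean over centred log2(value + 1) profiles, and its median over the candidates was 1.49. NONO had 1248 and 1063 normalised read counts in the LARP1 KO libraries, against 3706 and 3469 in the parental RNA-seq libraries. Its LARP1 KO libraries were the lower, as those of HSPA8 were, with a log2 difference of -1.64 for NONO (limma adjusted p = 6.90e-26). SNX3 differed by -1.70 (limma adjusted p = 3.38e-19) and LIF by -1.66 (limma adjusted p = 1.07e-21). These genes were chosen for this likeness, so their differences are a description.

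The wider chaperone network was read from 8 lists with 86 genes, of which 76 were tested. Of these 76 genes, 16 fell, 1 rose and 59 were not called, beside 25.1% and 3.77% of all genes tested. At an unadjusted p under 0.05, limma gave 23 lower and 2 higher, and the matching count over all genes was not made. At an adjusted p under 0.05, edgeR with the deposited factors called 17 lower and 1 higher, beside 3628 and 511 of the 14561 genes tested. DESeq2 called 8 lower and 8 higher, beside 1557 and 983 of all genes. It used its own size factors, so it differs from that edgeR fit in scaling as well as in method. After centring 9 fell, 19 rose and 48 were not called, beside 16.2% and 14.6% of all genes tested, so many calls on the helper genes rest on the scaling. Calls also rest on how the spread was set. With the deposited scaling, limma without its intensity trend called 8 lower and 0 higher, beside 1962 and 282 of all genes tested. Beyond the gene that a rule picked for each list, the called genes below were named after their values were seen.

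Among the other HSP70 and HSP110 genes, 3 of 9 tested fell and none rose (HSPA5, HSPA14 and HSPA12A, limma adjusted p under 0.05), with a median log2 difference of -0.47, and after centring HSPA5 fell and HSPA4L and HSPH1 rose. HSPA5, the HSP70 of the endoplasmic reticulum, averaged 171 ± 36.0 in LARP1 KO and 373 ± 57.0 in parental cells (SD, n = 2 each), a log2 difference of -1.13 (limma adjusted p = 1.64e-07). Both other HSP90 genes fell. TRAP1, the mitochondrial HSP90, averaged 441 ± 57.4 in LARP1 KO and 1008 ± 32.8 in parental cells, a log2 difference of -1.20 (limma adjusted p = 2.48e-11) that stayed called after centring (-0.89). HSP90B1, the HSP90 of the endoplasmic reticulum, differed by -0.46 (limma adjusted p = 0.0195) and was not called after centring (adjusted p = 0.223).

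The J-domain proteins of the cytosol and nucleus deliver clients to HSP70. Of 17 tested 3 fell (DNAJA2, DNAJC7 and DNAJC21) and none rose, with a median of -0.10. After centring none of the 17 fell by limma's adjusted p, 3 were lower at an unadjusted p under 0.05, and DNAJA1, DNAJB1, DNAJB2, DNAJB6 and DNAJC8 rose. DNAJA2 averaged 523 ± 111 in LARP1 KO and 766 ± 81.8 in parental cells (SD, n = 2 each), a log2 difference of -0.56 (limma adjusted p = 0.00501, and 0.104 after centring).

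Of the 10 genes for HSP70 exchange and holding factors, 2 fell, and both also fell after centring. ST13 encodes HIP, which slows the release of clients from HSP70. It had a mean of 921 ± 79.2 in LARP1 KO and 4810 ± 280 in parental cells (SD, n = 2 each), 5.22-fold lower in LARP1 KO, with a log2 difference of -2.38 (limma adjusted p = 1.14e-54), beside -1.68 for HSPA8. SGTA, which hands membrane proteins to their targeting pathway, differed by -1.17 (limma adjusted p = 3.66e-10). After centring BAG3, BAG6 and HSPBP1 rose, which with the deposited scaling differed by 0.32, 0.27 and 0.43 and were not called.

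Among 17 HSP90 co-chaperones 4 fell and none rose, with a median of -0.24. Among them PTGES3 (p23), which holds HSP90 in its closed form, differed by -0.98 (limma adjusted p = 3.15e-07), FKBP5 by -0.77 and CHORDC1 by -0.69. After centring 3 fell, PTGES3 and FKBP5 among them, and 6 rose, with STIP1, the HOP protein that bridges HSP70 and HSP90, at 0.66 centred and 0.35 with the deposited scaling (limma adjusted p = 1.30e-05 and 0.0946, in that order).

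The mitochondrial helpers and proteases mostly did not pass the test. Of 14 tested, DNAJC19 and HSCB fell and none rose, with a median of -0.15, and both also fell after centring. DNAJC19, a J-domain protein of the inner membrane, averaged 203 ± 5.79 in LARP1 KO and 376 ± 27.0 in parental cells (SD, n = 2 each), a log2 difference of -0.88 (limma adjusted p = 5.43e-05). GRPEL1, the exchange factor of HSPA9, differed by -0.08 (limma adjusted p = 0.794).

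Of 10 small heat shock proteins 3 were tested. HSPB8 rose, with 16 and 8 reads in the LARP1 KO libraries, against 2 and 0 reads in the parental RNA-seq libraries (limma adjusted p = 0.0293), a call lost with DESeq2, with TSS libraries as parental, with limma without its trend, and without LARP1 KO replicate 1, LARP1 KO replicate 2 or parental replicate 2. The ratio of its scaled reads, LARP1 KO over parental, was 6.76 with a 95% counting interval of 1.68 to 59.0. HSPB1 differed by -0.29 (limma adjusted p = 0.274). The list of heat shock factors had 4 genes tested, HSF1, HSF2, HSF4 and the HSF1-binding HSBP1. They gave no call in either direction with limma and the deposited scaling, and none at limma's unadjusted p under 0.05. At an adjusted p under 0.05, DESeq2 with its own size factors called 2 of them higher, beside 983 of the 14561 genes tested. For these genes edgeR called 0 higher with the deposited factors and 2 with TMM factors. HSBP1, which binds HSF1 and damps it, averaged 960.5 ± 73.1 in LARP1 KO and 895 ± 37.6 in parental cells (SD, n = 2 each), a log2 difference of 0.10 (limma adjusted p = 0.689). HSF1 differed by 0.23 (limma adjusted p = 0.306), and both HSF1 and HSBP1 rose after centring, with differences of 0.54 and 0.41 (limma adjusted p = 4.06e-04 and 0.00155, in that order).

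**Figure D4:**
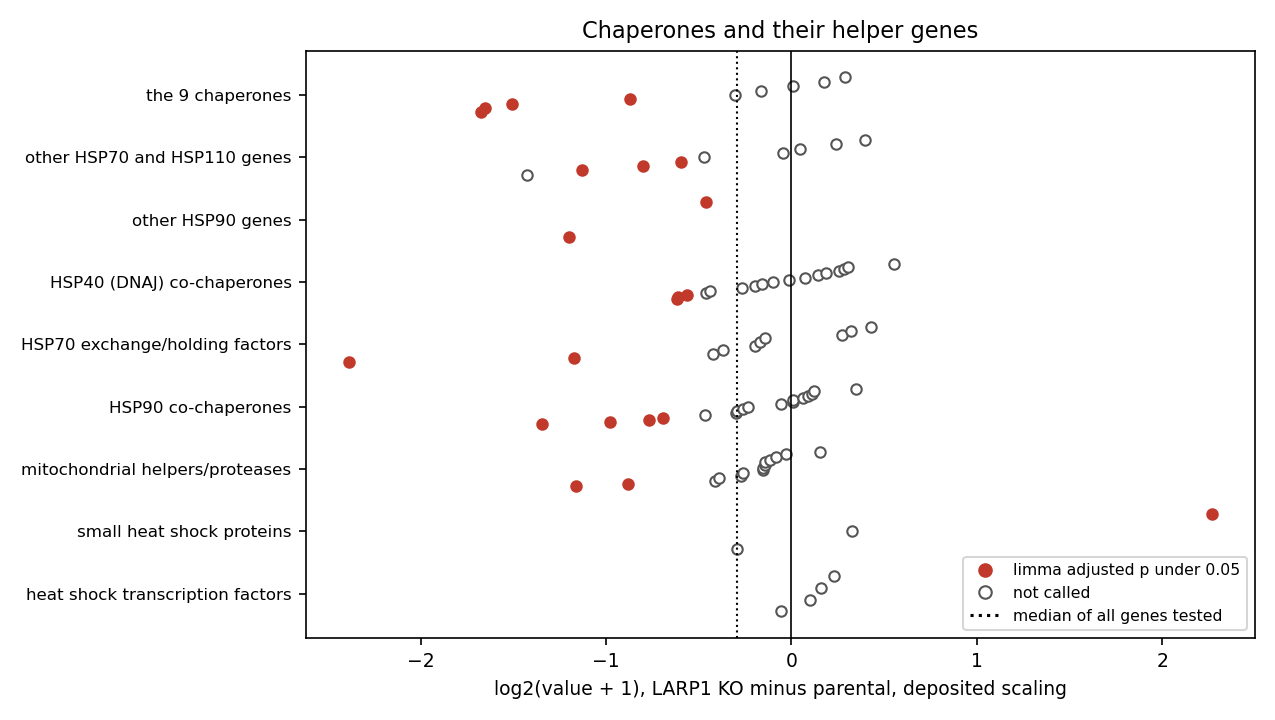
Difference in log2(value + 1), LARP1 KO minus parental RNA-seq libraries with the deposited scaling (x axis), for the 9 chaperone genes and 8 lists of related genes (y axis); each point is a gene, and its offset within a row carries no value. Filled points passed limma's adjusted p under 0.05 and the dotted line is the median of all genes tested at -0.29. Of the 76 genes in the 8 lists, 16 were called lower and 1 higher, and ST13 at -2.38 is the lowest point.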

How the data were processed

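One table of 14574 genes was used. Per the labels' protocols, RNA of pooled non-polysomal fractions was depleted of ribosomal RNA and read in pairs of 150 bases. The submitters' processing notes name STAR 2.6, RSEM, SAMtools and DESeq2 with GRCh38 as the build, and strand use is not given in the sources used here. The signal values that the authors deposited were reads divided by 1 size factor per library, and 100% came out as whole reads (tolerance 0.001 reads). Deposited factors differed from median-of-ratios factors by 0.04 and 0.29 (log2) in the LARP1 KO libraries and by -0.09 and -0.19 in the parental RNA-seq libraries. Per the file headers, the authors also deposited a log2 fold change, a linear fold (ratio), a standard error and test score, p-values, and −log10 of the adjusted p-value.

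The planned test depended on the unit. As the values are normalised, log2(value + 1) was tested with limma-trend (limma 3.58.1 under R 4.3.3) for 2 LARP1 KO against 2 parental RNA-seq libraries. This scale shrinks changes of genes with low values. The filter was 1 or more in 2 or more of the libraries (14561 genes), with Benjamini-Hochberg adjustment over all of them, two-sided, called at an adjusted p under 0.05. The spread used for a gene was that of the trend over mean level, since the prior degrees of freedom came out infinite. The count test on the recovered reads (edgeR 4.0.16, TMM factors) called 2612 genes lower and 2130 higher, and 3628 and 511 with the deposited factors. DESeq2 1.42.0, other filters and pseudocounts, and leaving out each library were further alternatives. Every pair of libraries differed beyond sampling noise (median chi-square over its expected median at least 1.77). The labels call the libraries biological replicates without naming separate cultures. The p-values thus rest on the spread between these samples, which may be technical. In the main fit that spread is pooled over genes of like level and is not a gene's own. Without the trend, limma's adjusted p rose to 0.00545 for HSPA8, 0.00593 for HSPD1 and 0.00740 for HSP90AB1. The test was checked on simulated data with as many rises as falls and with the true scaling. That check does not bear on the choice of scaling. Intervals from reads cover counting error only.

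Members and lists were chosen with earlier results of these data known. Named genes were all 9 members, LARP1, the gene with the smallest adjusted p in each direction of each list (or the most abundant where none was called), and the 3 genes nearest to the member with the highest mean and to the one with the largest difference. Coordinates, 1-based, and transcript lengths are from GENCODE (GRCh38), start windows from RefSeq (GRCh38.p14). A gene that this rule names and a start window are not reported here.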

Additional observations from a re-analysis of the deposited data

How the results depend on the processing

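HSPA8, HSPD1 and HSP90AB1 stayed lower in LARP1 KO and called under all 17 alternatives, and HSPA4 under 16 of 17, the exception being limma without its trend. Of 153 values of the 9 genes under alternatives, 128 kept direction and call, 10 became called, 1 was lost and 14 changed sign. Of 272 counts over the helper lists, 66 moved, either by over 1.5 times or from or to 0. The number of the 9 genes called higher was 2 after centring, with TMM factors, with edgeR and TMM and with DESeq2 (HSPA1B and HSP90AA1), and 1 with TSS libraries, alone or averaged with RNA-seq, as parental (HSPA1B). HSPA9 changed sign to 0.147 after centring, 0.133 with TMM, 0.134 with edgeR and TMM and 0.140 with DESeq2, and ran between -0.36 and 0.031 with a library left out, 0.031 without LARP1 KO replicate 2. HSPE1 changed sign to 0.00547 after centring, 0.0046 with DESeq2 and 0.12 with TSS libraries as parental. HSP90AA1 changed sign to -0.0288 with TSS libraries as parental and -0.0097 with both kinds averaged, and ran between -0.15 and 0.17 with a library left out. HSPA1A ran between -0.38 and 0.73 with a library left out. None of these sign changes was of a called value, and the cause was not tested.

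Over all genes, 2365 were lower and 2119 higher after centring, 1962 and 282 without the trend, and 1557 and 983 with DESeq2. TMM gave 1976 higher, edgeR with TMM 2130, TSS libraries as parental 922, and both kinds averaged 826. Leaving out LARP1 KO replicate 1 or 2 gave 2416 and 1233 lower and 116 and 134 higher; leaving out parental replicate 1 or 2 gave 2403 and 1825 lower and 366 and 389 higher, with fewer libraries and a lone one assumed to vary like the rest. Replicate numbers share only a number here (r = -0.0232 across 14561 genes between genotypes). With the replicate block, 2771 genes were lower and 388 higher, and 4 of the 9 chaperones were lower.

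Depth limits HSPA1A, with 17 to 52 reads a library, and HSPB8. With 2 libraries a group no exact permutation p under 0.333 is possible.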
